A study of Mus musculus with 20 samples.

Results

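The genes described here encode checkpoint ligands and costimulatory molecules, the surface and secreted proteins with which an antigen-presenting cell raises or restrains a T cell response. They were chosen by name, as the rows of the count table whose Ensembl gene IDs map to Cd274, Pdcd1lg2, Cd40, Cd80, Cd86, Lgals9, Havcr2 and Vsir. All 8 genes were matched among 56941 gene IDs, and all 8 passed the filter on low counts. Poly(A)-enriched RNA had been sequenced from the immortalized murine microglial line BV-2, grown in DMEM with 10% fetal bovine serum and antibiotics. The 4 groups were cells labelled RGS10 knockout (KO) with interferon gamma (IFNγ), KO cells with vehicle, wild-type (WT) cells with IFNγ and WT cells with vehicle. IFNγ was given at 10 ng/mL for 48 h, and vehicle was medium alone for the same time. The labels do not say how the knockout was made or whether it is 1 clone, so genotype and clone cannot be told apart. Each group held 5 libraries: replicates 1 to 3 belong to batch 1, replicate 4 to batch 2 and replicate 5 to batch 3. Nothing in the labels ties a replicate to a separate thaw or passage, so the p-values below measure only the spread between these libraries, which fell into 3 batches.

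PD-L1 (Cd274) and PD-L2 (Pdcd1lg2) bind PD-1 on T cells and dampen their activation. CD80 and CD86 bind CD28, which costimulates, and CTLA-4, which inhibits, while CD40 on the presenting cell receives CD40 ligand from helper T cells and raises CD80, CD86 and cytokine expression. Galectin-9 (Lgals9) is a ligand of TIM-3 (Havcr2), and VISTA (Vsir) is a B7 family inhibitory molecule of myeloid cells. Microglia, the macrophages of the brain, carry little of the B7 and CD40 proteins at rest and more after IFNγ, which acts through JAK kinases.

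Total counts per library lay between 15866749 and 29157740, and levels are given as CPM, the counts per library scaled to a common total after TMM. All 10 microglia and macrophage marker genes were above 1 CPM on average in every group. Their summed level was 3190 to 4590 CPM in KO IFNγ, 2360 to 2930 CPM in KO vehicle, 3690 to 6670 CPM in WT IFNγ and 2700 to 3340 CPM in WT vehicle libraries. With IFNγ 7 of these 10 rose and 1 fell in KO cells, and 6 rose and 2 fell in WT cells. Of all tested genes, 43.2% changed in KO and 58.9% in WT cells. Cx3cr1 averaged 2.9 CPM in KO IFNγ and 1.03 CPM in WT IFNγ libraries, against 70.7 and 86.1 CPM with vehicle. Csf1r fell in WT cells, from 743 to 497 CPM. Aif1 averaged 3.36 CPM in KO vehicle and 23.9 CPM in WT vehicle libraries. Of 9 dendritic cell genes 5 were tested, and 2 of them rose with IFNγ in each line, beside 21.4% of all tested genes in KO and 29% in WT cells. The summed level of the list was 95.6 to 478 CPM in KO IFNγ and 34.7 to 42.3 CPM in KO vehicle libraries, and 172 to 668 CPM in WT IFNγ and 71.9 to 177 CPM in WT vehicle libraries, with Itgax the most abundant of them under IFNγ. Of the 5 tested, Clec9a rose the most in each line (edgeR adjusted p = 1.6e-09 in KO and 3.6e-09 in WT cells). It averaged 39.2 ± 20.8 CPM in KO IFNγ and 24.2 ± 24.1 CPM in WT IFNγ libraries (SD, n = 5 each), and 0 CPM in both vehicle groups. The part of the dendritic cell genes in the results below was not tested. Of the other marker lists, 1 of 4 astrocyte, 1 of 3 neuron and 2 of 3 oligodendrocyte genes passed the filter on low counts, and 0 of 5 B cell and 0 of 4 fibroblast genes did. Rgs10 RNA averaged 24.4 ± 14.7 CPM in KO IFNγ, 28.2 ± 4.56 CPM in KO vehicle, 29.6 ± 11.7 CPM in WT IFNγ and 63 ± 6.62 CPM in WT vehicle libraries (SD, n = 5 each). It was thus still read in libraries labelled knockout, at lower levels than WT under vehicle and with overlapping ranges under IFNγ. The batch 2 and 3 IFNγ libraries stood apart from those of batch 1. Their TMM factors were 0.892 and 0.879 in KO and 0.635 and 0.764 in WT cells, against 1.01 to 1.123 in the other libraries. CPM is divided by this factor, so the factors also enter the within-batch values. Malat1, a nuclear RNA, was at 1620 and 1140 CPM in the batch 2 and 3 KO IFNγ libraries and 2390 and 1250 CPM in the WT ones, against 53.2 to 59.4 CPM in batch 1 KO IFNγ and 338 to 370 CPM in batch 1 WT IFNγ libraries. Summed with Neat1, it was at 136 to 4080 CPM in KO IFNγ, 79.7 to 265 CPM in KO vehicle, 585 to 4910 CPM in WT IFNγ and 97.8 to 283 CPM in WT vehicle libraries. Within-batch values are therefore given beside the pooled ones, and the part of this difference in the pooled values was not tested.

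Most of the 8 genes rose with IFNγ in both lines, with Cd274 and Cd40 changing the most, and several were lower in KO than in WT cells. In KO cells 5 of the 8 genes rose with IFNγ and 0 fell, where 43.2% of the 13755 tested genes were called, 21.4% higher and 21.8% lower. In WT cells 7 of the 8 rose and 0 fell, where 58.9% of all genes were called, 29% higher and 29.9% lower. Between KO and WT cells under IFNγ, 5 of the 8 were lower and 0 higher, beside 39% of all genes called, 20% higher and 19% lower. Under vehicle 3 were lower and 1 was higher, beside 27.3% called, 14.8% lower and 12.5% higher. The response to IFNγ was smaller in KO than in WT cells for 2 of the 8 and larger for 0, where 6.5% of all genes differed in response, 3.64% larger and 2.86% smaller. The median log2 change over all tested genes was between −0.02 and 0.03 in each of the 5 comparisons. A gene was called where edgeR's quasi-likelihood test, with batch as a term, gave a Benjamini-Hochberg adjusted p under 0.05. In bulk RNA, fewer expressing cells and less RNA per cell cannot be told apart.

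**Figure D1:**
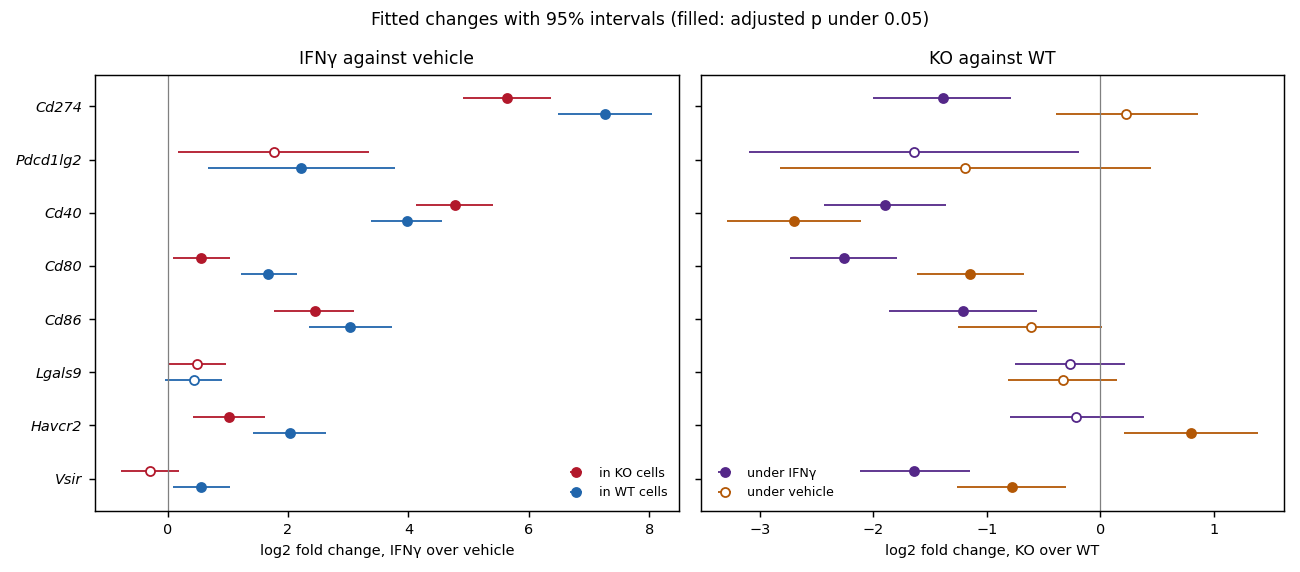
Fitted log2 fold changes of the 8 genes with 95% intervals, IFNγ over vehicle (left) and KO over WT (right), filled where the adjusted p is under 0.05. The IFNγ changes reach 7.26 for Cd274 in WT cells, and the KO against WT changes under IFNγ lie at or below −0.21 for every gene.

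Per kilobase of exon, the order of the 8 messages changed with treatment. Cd274 had the highest mean with IFNγ, at 218 CPM per kb in KO and 535 CPM per kb in WT cells, where Lgals9 stood at 88.1 and 107 CPM per kb and Cd86 at 82.6 and 205 CPM per kb. Under vehicle Lgals9 had the highest mean, at 62.8 CPM per kb in KO and 79.1 CPM per kb in WT cells, and Cd274 stood at 3.16 and 2.9 CPM per kb. Pdcd1lg2 had the lowest mean in every group, from 0.101 CPM per kb in KO vehicle to 1.62 CPM per kb in WT IFNγ cells, and Cd80 the next lowest in every group, from 0.891 CPM per kb in KO vehicle to 6.43 CPM per kb in WT IFNγ cells. The exon lengths are those of GENCODE vM21 on GRCm38, an earlier build than the GRCm39 of the counts.

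**Figure D2:**
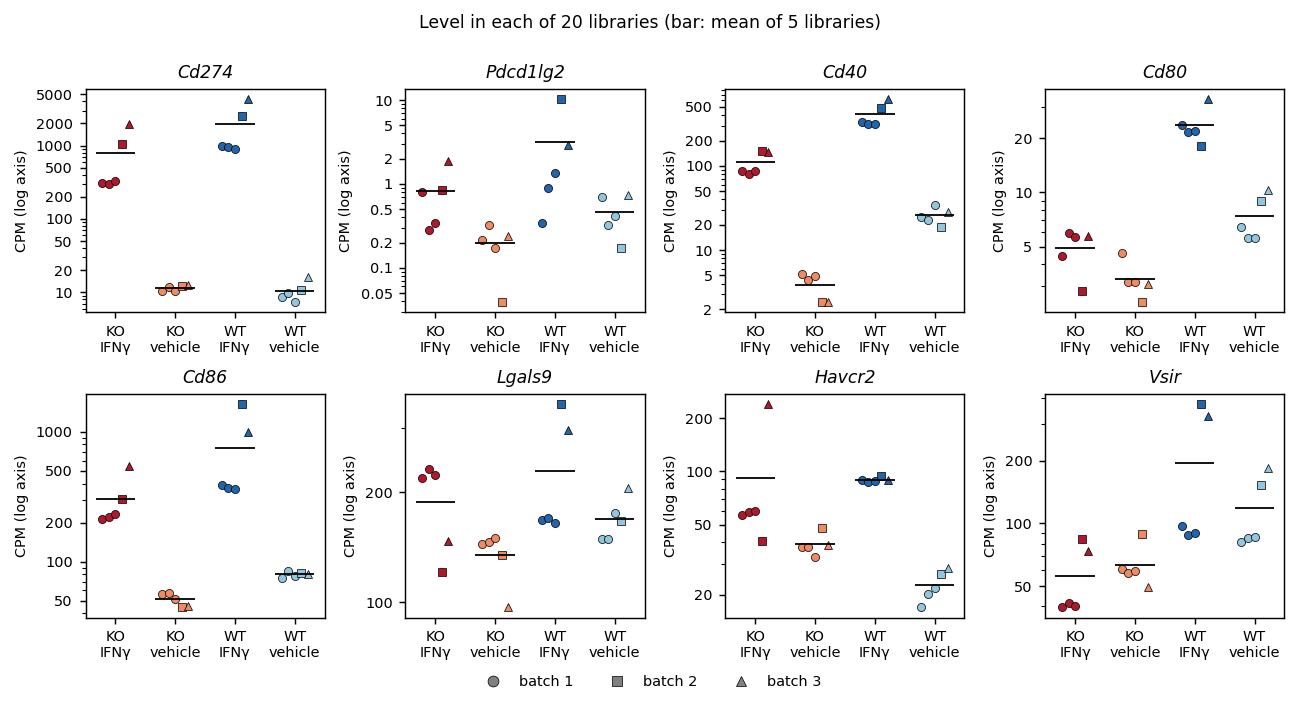
Level of each gene in CPM (log axis) in the 20 libraries, with the 4 groups along the horizontal axis, the batch as the symbol and the group mean of 5 libraries as a bar. Circles (batch 1) lie close together, while squares and triangles (batches 2 and 3) lie higher in the IFNγ groups for Cd274, from 1034 to 4341 CPM.

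The genes of the PD-1 ligands, Cd274 (ENSMUSG00000016496) and Pdcd1lg2 (ENSMUSG00000016498), lie on the plus strand of mouse chromosome 19 with starts 43481 bp apart on GRCm38. Cd274 was a prominent IFNγ-induced gene in both lines, and Pdcd1lg2 was close to the detection limit. The 250 bases before each RefSeq start are shown because these neighbours share a receptor and yet differed in level. Capitals mark a match to the NF-κB-type motif, which is GGG, any 5 bases and CC, searched on both strands.
Cd274 promoter, chr19:29367188-29367437, plus strand, GRCm38.p6, RefSeq: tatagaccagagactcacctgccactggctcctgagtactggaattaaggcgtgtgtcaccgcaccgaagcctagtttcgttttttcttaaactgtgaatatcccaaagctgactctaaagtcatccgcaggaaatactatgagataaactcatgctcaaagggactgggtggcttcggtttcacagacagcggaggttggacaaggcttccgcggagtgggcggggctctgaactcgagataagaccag
Pdcd1lg2 promoter, chr19:29410669-29410918, plus strand, GRCm38.p6, RefSeq: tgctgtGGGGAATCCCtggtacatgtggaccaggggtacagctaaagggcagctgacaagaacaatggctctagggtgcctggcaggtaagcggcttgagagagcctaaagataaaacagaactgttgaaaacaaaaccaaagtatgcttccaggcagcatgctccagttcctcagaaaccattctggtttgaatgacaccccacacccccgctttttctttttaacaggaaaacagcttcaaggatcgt
Neither window holds the GAS motif TTCNNNGAA, present in 7.02% of 32851 mouse windows of the same 250 bases, or the IRF-type motif (GAAA, any 2 bases, GAAA), present in 2.98%. The NF-κB-type motif, present in 45.8% of those promoters, occurs in Pdcd1lg2 with its first base at position −244 from the start, and not in Cd274. The letters of a window say nothing about which factor binds there.

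Cd274 was read at 306, 297, 330, 1034 and 1987 CPM in KO IFNγ libraries 1 to 5 and at 10.4, 11.7, 10.5, 12.1 and 12.6 CPM in KO vehicle libraries. It was read at 998, 953, 892, 2515 and 4341 CPM in WT IFNγ libraries and at 8.61, 9.77, 7.34, 10.7 and 16.1 CPM in WT vehicle libraries. Every IFNγ library of a line lay above every vehicle library, and the batch 2 and 3 IFNγ libraries were the highest in both lines. The log2 response was 5.64 ± 0.34 (SE) in KO cells (edgeR adjusted p = 2.2e-10) and 7.26 ± 0.37 in WT cells (edgeR adjusted p = 1.5e-11). Ranked by the size of the log2 change, it was number 87 of all tested genes in KO and number 43 in WT cells. By batch (1, 2 and 3) the response was 4.84, 6.42 and 7.3 in KO cells and 6.79, 7.88 and 8.08 in WT cells.

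Cd274 RNA under IFNγ was 2.63-fold lower in KO than in WT cells, a log2 difference of −1.39 ± 0.28 (edgeR adjusted p = 0.00058). The 2 groups overlapped across batches, but KO was the lower in each of batches 1, 2 and 3, by −1.61, −1.28 and −1.13 on the log2 scale. Under vehicle the difference was 0.23 ± 0.29, with a 95% interval of −0.39 to 0.86 (edgeR adjusted p = 0.6). The response itself was smaller in KO cells by −1.63 ± 0.40 (edgeR adjusted p = 0.02), or −1.95, −1.46 and −0.78 in batches 1, 2 and 3. Without the batch term the lower level under IFNγ was −1.29 (adjusted p = 0.065) and the smaller response −1.42 (adjusted p = 0.42). Without WT IFNγ replicate 5 the smaller response was −1.46 (adjusted p = 0.051). Of the Cd274 exon sequence, 511 bases overlap AC119228.1, a gene on the opposite strand with 4247 counts over the 20 libraries against 257873 for Cd274. The sources used here do not give the strand setting of the counting, and reads of the pair cannot be told apart where they overlap.

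Pdcd1lg2, which encodes the second PD-1 ligand, had 406 counts over all 20 libraries. The counts were 23, 8, 8, 15 and 32 in KO IFNγ, 6, 8, 4, 1 and 6 in KO vehicle, 8, 27, 35, 133 and 47 in WT IFNγ and 13, 7, 9, 3 and 13 in WT vehicle libraries. As CPM the group means were 0.826 ± 0.633 in KO IFNγ, 0.198 ± 0.104 in KO vehicle, 3.17 ± 4.14 in WT IFNγ and 0.467 ± 0.241 in WT vehicle libraries (SD, n = 5 each). WT IFNγ replicate 4 alone held 133 of the counts, and the IFNγ and vehicle ranges overlapped in each line. The fitted log2 response was 1.76 ± 0.74 in KO cells (edgeR adjusted p = 0.061) and 2.22 ± 0.72 in WT cells (edgeR adjusted p = 0.013). For batches 1, 2 and 3 taken alone, the log2 response was 0.86, 4.14 and 2.89 in KO cells and 0.7, 5.83 and 1.98 in WT cells. The batch 2 values rest on vehicle counts of 1 in KO and 3 in WT cells. Under IFNγ in KO cells, batch 3 held 32 counts and batch 2 held 15. The KO response was called in 8 of the 30 alternative settings, among them DESeq2, at 1.76 (adjusted p = 0.03), and the fit without WT IFNγ replicate 4, at 1.91 (adjusted p = 0.0094). The WT call was lost without batch 2, at 1.16, within batch 1 alone, at 0.86, without WT IFNγ replicate 4, at 1.26, and without WT vehicle replicate 4, at 1.68. The KO against WT difference was −1.64 ± 0.68 under IFNγ (edgeR adjusted p = 0.061) and −1.19 ± 0.76 under vehicle (edgeR adjusted p = 0.27), and neither was called. Within batches 1, 2 and 3 the difference under IFNγ was −0.79, −3.59 and −0.64. It was called in 4 of the 30 alternatives, among them DESeq2, at −1.72 (adjusted p = 0.024), and was −0.53 without WT IFNγ replicate 4.

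Within a library, Cd274 counts per kb exceeded those of Pdcd1lg2 by a mean log2 of 8.83 ± 0.66 in KO IFNγ, 5.04 ± 1.02 in KO vehicle, 8.97 ± 1.32 in WT IFNγ and 3.64 ± 0.82 in WT vehicle libraries (SD, n = 5 each, 0.5 added to each count). IFNγ moved this ratio by 3.79 in KO cells and by 5.33 in WT cells, each with p = 0.0079 in a two-sided exact permutation test and 0.016 after adjustment over the 8 ratio tests run. That p is the smallest that 5 libraries against 5 allow. By batch (1, 2 and 3) the change was 4, 2.5 and 4.45 in KO cells and 6.11, 2.19 and 6.12 in WT cells. The KO against WT difference of the ratio was −0.14 under IFNγ (exact permutation, adjusted p = 0.87), with batches of opposite sign at −0.82, 2.28 and −0.49. Under vehicle it was 1.40 (exact permutation, adjusted p = 0.051), with 1.29, 1.97 and 1.17 in the 3 batches, and without WT vehicle replicate 4 it was 1.70 (exact permutation, adjusted p = 0.032). The denominator rests on as few as 1 count, so these ratios carry the counting error of Pdcd1lg2.

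Cd40 (ENSMUSG00000017652, chromosome 2) encodes the receptor through which helper T cells license a presenting cell. It rose with IFNγ in both lines and was lower in KO cells under both treatments. Its level was 87.3, 79.5, 86.6, 149 and 148 CPM in KO IFNγ libraries and 5.23, 4.46, 5.00, 2.41 and 2.43 CPM in KO vehicle libraries. WT IFNγ libraries held 332, 313, 310, 485 and 626 CPM and WT vehicle libraries 25, 22.6, 34.2, 18.9 and 28.3 CPM. No 2 of the 4 groups overlapped, and the order from the lowest was KO vehicle, WT vehicle, KO IFNγ and WT IFNγ. The response was 27.2-fold in KO cells (log2 4.77 ± 0.30, edgeR adjusted p = 3.1e-10) and 15.6-fold in WT cells (log2 3.97 ± 0.28, edgeR adjusted p = 1.2e-09). For batches 1, 2 and 3 taken alone, the log2 response was 4.11, 5.95 and 5.92 in KO cells and 3.57, 4.68 and 4.47 in WT cells. The difference of those responses, 0.80 ± 0.36 with a 95% interval of 0.03 to 1.57, was not called (edgeR adjusted p = 0.2), with 0.54, 1.27 and 1.45 in batches 1, 2 and 3.

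KO cells had 3.73-fold less Cd40 RNA than WT cells under IFNγ (log2 −1.90 ± 0.25, edgeR adjusted p = 8.3e-06) and 6.5-fold less under vehicle (log2 −2.70 ± 0.28, edgeR adjusted p = 3.4e-07). Within batches 1, 2 and 3 the differences were −1.91, −1.70 and −2.08 under IFNγ and −2.46, −2.96 and −3.54 under vehicle. Every batch gave the same direction, and each of these 4 Cd40 calls was kept in all 30 alternative settings.

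Of 12 genes on a list of CD40 signalling, all 12 were tested. With IFNγ 6 rose and 0 fell in KO cells, where 43.2% of all tested genes were called, 21.4% higher and 21.8% lower. In WT cells 7 rose and 0 fell, where 58.9% of all tested genes were called, 29% higher and 29.9% lower. The median log2 response of the list was 0.38 in KO and 0.52 in WT cells. The largest rise was that of Tnfaip3, which encodes the NF-κB inhibitor A20, at 2.48 ± 0.34 in KO cells (edgeR adjusted p = 1.1e-05) and 3.10 ± 0.34 in WT cells (edgeR adjusted p = 3.2e-07). Between KO and WT cells, 5 of the list were higher and 2 lower under IFNγ, beside 20% and 19% of all tested genes. Under vehicle 4 were higher and 2 lower, beside 12.5% and 14.8% of all tested genes. Only Map3k14, the kinase NIK of the alternative NF-κB pathway, differed in response, by −1.14 ± 0.19 (edgeR adjusted p = 0.0012), where 6.5% of all tested genes did. It is named after its value was seen.

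Cd80 (ENSMUSG00000075122) and Cd86 (ENSMUSG00000022901) are both on chromosome 16 and encode the B7 ligands of CD28 and CTLA-4. Both rose with IFNγ in both lines, and per kb Cd86 was the more abundant message in every library. Cd80 was read at 4.41, 5.98, 5.65, 2.84 and 5.70 CPM in KO IFNγ libraries and at 4.62, 3.17, 3.19, 2.45 and 3.07 CPM in KO vehicle libraries. It was read at 23.9, 21.7, 22, 18.2 and 33.2 CPM in WT IFNγ libraries and at 6.41, 5.58, 5.55, 8.93 and 10.4 CPM in WT vehicle libraries. The WT IFNγ libraries stood above all others, and the 2 KO groups overlapped. Its response was 1.47-fold in KO cells (log2 0.56 ± 0.22, edgeR adjusted p = 0.047) and 3.19-fold in WT cells (log2 1.67 ± 0.22, edgeR adjusted p = 2.3e-06). By batch (1, 2 and 3) the log2 response was 0.56, 0.21 and 0.89 in KO cells and 1.94, 1.03 and 1.68 in WT cells. The responses differed by −1.11 ± 0.31 (edgeR adjusted p = 0.034), with −1.39, −0.82 and −0.79 in batches 1, 2 and 3. Over all 30 alternative settings the KO response ranged from 0.43 to 0.72, and it lost its call in 18 of them. The difference of responses ranged from −1.38 to −0.95 over the 30, and it lost its call in 14.

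KO cells had 4.8-fold less Cd80 RNA than WT cells under IFNγ (log2 −2.26 ± 0.22, edgeR adjusted p = 1.9e-07) and 2.22-fold less under vehicle (log2 −1.15 ± 0.22, edgeR adjusted p = 0.00057). KO and WT libraries did not overlap under either treatment. The differences within batches 1, 2 and 3 were −2.08, −2.68 and −2.54 under IFNγ and −0.69, −1.86 and −1.75 under vehicle.

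Cd86 was read at 212, 220, 232, 302 and 547 CPM in KO IFNγ libraries and at 56.4, 57.6, 51.1, 44.4 and 45.9 CPM in KO vehicle libraries. It was read at 389, 367, 364, 1641 and 999 CPM in WT IFNγ libraries and at 74.2, 85.3, 77.9, 81.8 and 80.5 CPM in WT vehicle libraries. The IFNγ groups lay above the vehicle groups without overlap, and KO lay below WT without overlap under vehicle only. The response was 5.41-fold in KO cells (log2 2.44 ± 0.31, edgeR adjusted p = 6.1e-06) and 8.17-fold in WT cells (log2 3.03 ± 0.32, edgeR adjusted p = 2.3e-07). For batches 1, 2 and 3 taken alone, it was 2.01, 2.77 and 3.57 in KO cells and 2.24, 4.33 and 3.63 in WT cells. The KO against WT difference was −1.21 ± 0.30 under IFNγ (edgeR adjusted p = 0.0034), with −0.75, −2.44 and −0.87 in the 3 batches, and was −0.76, and still called, without WT IFNγ replicate 4. Under vehicle it was −0.61 ± 0.30 and not called (edgeR adjusted p = 0.13), with −0.52, −0.88 and −0.81 in the 3 batches.

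Cd86 exceeded Cd80 per kb 48.5-, 37-, 41.4-, 107- and 96.5-fold in KO IFNγ libraries and 12.3-, 18.3-, 16.1-, 18.2- and 15-fold in KO vehicle libraries. It did so 16.4-, 17.1-, 16.7-, 90.8- and 30.4-fold in WT IFNγ libraries and 11.7-, 15.4-, 14.1-, 9.25- and 7.83-fold in WT vehicle libraries. The fold was higher with IFNγ in every KO library, and in WT cells most of all in batches 2 and 3. The mean log2 ratio of Cd80 over Cd86 was −5.90 ± 0.71 in KO IFNγ, −3.98 ± 0.24 in KO vehicle, −4.73 ± 1.06 in WT IFNγ and −3.50 ± 0.41 in WT vehicle libraries (SD, n = 5 each). The change with IFNγ was −1.92 in KO and −1.23 in WT cells, each with a two-sided exact permutation p of 0.0079 and 0.016 after adjustment over the 8 ratio tests. Leaving out any 1 of the WT vehicle libraries ended the WT call, with −1.10 to −1.34 and exact permutation p-values of 0.051 to 0.085 after adjustment. The WT groups still did not overlap then, as the highest IFNγ ratio was −4.04 and the lowest vehicle ratio −3.95 over all libraries. Within batches 1, 2 and 3 the change was −1.45, −2.55 and −2.68 in KO cells and −0.30, −3.30 and −1.96 in WT cells. The KO against WT difference was −1.18 under IFNγ (exact permutation, adjusted p = 0.073), with −1.33, −0.23 and −1.67 in the 3 batches and −1.62 without WT IFNγ replicate 4 (exact permutation, adjusted p = 0.016). It was −0.48 under vehicle (exact permutation, adjusted p = 0.063).

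**Figure D3:**
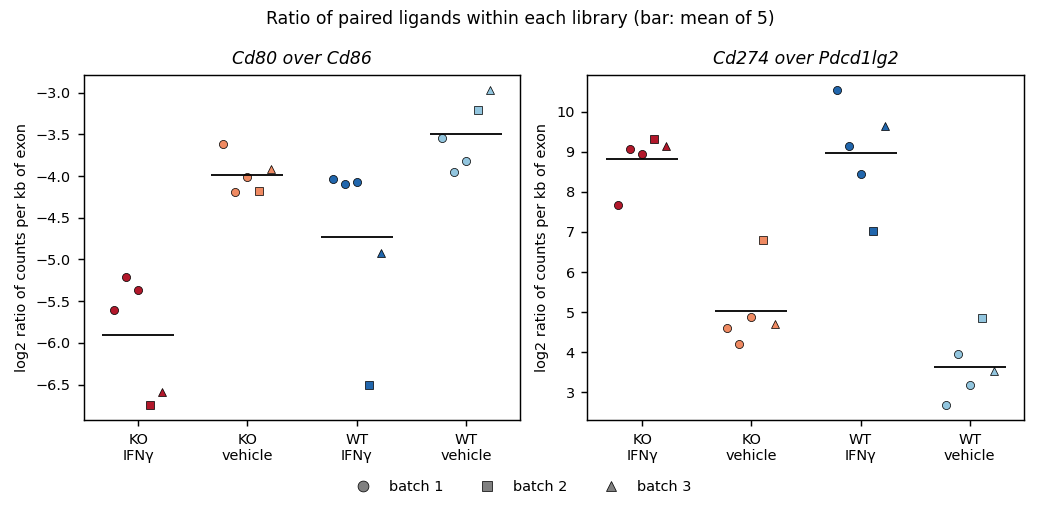
Within-library log2 ratio of counts per kb of exon, Cd80 over Cd86 (left) and Cd274 over Pdcd1lg2 (right), in the 20 libraries by group, with the batch as the symbol and the mean of 5 as a bar. Cd80 over Cd86 averages −5.90 in KO IFNγ and −3.98 in KO vehicle libraries, and the WT IFNγ library of batch 2 lies apart from the 3 of batch 1.

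Lgals9 (ENSMUSG00000001123, chromosome 11) encodes galectin-9, a carbohydrate-binding protein that engages TIM-3. It was an abundant message in all 4 groups and was not called in any of the 5 comparisons. Its promoter window is shown because it alone, among the 6 of the 8 genes with an entry in the RefSeq table, holds the IRF-type motif. Cd40 and Cd86 had no entry. Capitals mark that match, TTTCTTTTTC on the reverse strand with its first printed base at position −55 from the start, and the NF-κB-type match GGGAACACCC at position −129.
Lgals9 promoter, chr11:78984925-78985174, minus strand, GRCm38.p6, RefSeq: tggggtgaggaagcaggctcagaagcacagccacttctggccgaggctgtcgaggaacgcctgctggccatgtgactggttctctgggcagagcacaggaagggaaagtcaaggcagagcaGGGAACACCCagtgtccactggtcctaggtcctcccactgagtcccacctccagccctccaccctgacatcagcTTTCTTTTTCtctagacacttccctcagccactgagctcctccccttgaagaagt
Lgals9 was read at 219, 232, 223, 121 and 147 CPM in KO IFNγ libraries and at 145, 146, 150, 134 and 96.8 CPM in KO vehicle libraries. It was read at 168, 170, 164, 348 and 295 CPM in WT IFNγ libraries and at 149, 149, 175, 167 and 206 CPM in WT vehicle libraries. The batches went opposite ways: with IFNγ, batch 1 held the highest KO values, while batches 2 and 3 held the highest WT values. The response was 0.49 ± 0.22 in KO cells (edgeR adjusted p = 0.081) and 0.43 ± 0.22 in WT cells (edgeR adjusted p = 0.11), with 95% intervals that reach 0.97 and 0.91. By batch (1, 2 and 3) it was 0.61, −0.15 and 0.6 in KO cells and 0.09, 1.06 and 0.52 in WT cells. The KO against WT difference under IFNγ was −0.27 ± 0.23 (edgeR adjusted p = 0.38), made up of 0.43, −1.52 and −1.01 in batches 1, 2 and 3. Batch 1 alone gave 0.45 (edgeR adjusted p = 2.2e-08), the opposite direction to the other 2 batches. That p measures only the spread within batch 1, where 69.3% of all tested genes were called in this comparison.

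Havcr2 (ENSMUSG00000020399, chromosome 11) encodes TIM-3, a receptor known from exhausted T cells that microglia also carry. It rose with IFNγ in both lines and was the only gene of the 8 that was higher in KO cells, under vehicle. Havcr2 was read at 57, 58.8, 59.5, 40.5 and 241 CPM in KO IFNγ libraries and at 37.1, 37.1, 32.8, 47.8 and 38.1 CPM in KO vehicle libraries. It was read at 89.3, 87.3, 88.7, 94.3 and 89.4 CPM in WT IFNγ libraries and at 17, 20.1, 21.7, 26.4 and 28.3 CPM in WT vehicle libraries. WT IFNγ libraries agreed closely, at 89.8 ± 2.66 CPM (SD, n = 5), and KO IFNγ replicate 5 stood far above the other KO IFNγ libraries. The response was 2.03-fold in KO cells (log2 1.02 ± 0.28, edgeR adjusted p = 0.0065) and 4.07-fold in WT cells (log2 2.03 ± 0.28, edgeR adjusted p = 5.8e-06). Without KO IFNγ replicate 5 the KO response was 0.52 on the log2 scale and still called. In KO cells it was 0.71, −0.24 and 2.66 in batches 1, 2 and 3, and in WT cells 2.18, 1.84 and 1.66.

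Under vehicle Havcr2 was 1.74-fold higher in KO than in WT cells (log2 0.80 ± 0.28, edgeR adjusted p = 0.036), with no overlap of the 2 groups and 0.87, 0.86 and 0.43 in the 3 batches. The call was lost in 11 of the 30 alternative settings, among them the fit with replicate number as a block, at 0.80 (adjusted p = 0.055). Under IFNγ the difference was −0.21 ± 0.28 (edgeR adjusted p = 0.59), and without KO IFNγ replicate 5 it was −0.70 (edgeR adjusted p = 0.0011). The difference of responses was −1.01 ± 0.39 (edgeR adjusted p = 0.13) with that library and −1.47 (edgeR adjusted p = 0.00023) without it.

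Vsir (ENSMUSG00000020101, chromosome 10) encodes VISTA, an inhibitory ligand and receptor of myeloid cells. It was lower in KO cells under both treatments. Vsir was read at 39.5, 41.5, 40.3, 83.9 and 73.7 CPM in KO IFNγ libraries and at 60.4, 57.6, 59.2, 88.6 and 49.5 CPM in KO vehicle libraries. It was read at 96.9, 87.8, 89.9, 374 and 329 CPM in WT IFNγ libraries and at 81, 85.6, 85.7, 153 and 185 CPM in WT vehicle libraries. Under IFNγ every KO library lay below every WT library, and in WT cells the batch 2 and 3 libraries were the highest under both treatments. KO cells had 3.11-fold less Vsir RNA under IFNγ (log2 −1.64 ± 0.23, edgeR adjusted p = 1.2e-05) and 1.72-fold less under vehicle (log2 −0.78 ± 0.22, edgeR adjusted p = 0.012). For batches 1, 2 and 3 taken alone, the differences were −1.18, −2.16 and −2.16 under IFNγ and −0.51, −0.79 and −1.91 under vehicle. Without the batch term the difference under vehicle had an adjusted p of 0.13.

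The Vsir response to IFNγ was −0.30 ± 0.22 in KO cells (edgeR adjusted p = 0.29) and 0.56 ± 0.22 in WT cells (edgeR adjusted p = 0.037). The difference of the responses, −0.86 ± 0.31, was not called (edgeR adjusted p = 0.11). The WT rise was lost in 13 of the 30 alternative settings, in which it ranged from 0.11 to 0.73, and it was 0.36 without WT IFNγ replicate 4 and 0.34 without WT IFNγ replicate 5. Within batches 1, 2 and 3 it was 0.12, 1.29 and 0.83, and in KO cells −0.55, −0.08 and 0.58. Batch 1 alone gave a KO response of −0.52 (edgeR adjusted p = 1.2e-08), as did the fit without KO vehicle replicate 5, at −0.52 (edgeR adjusted p = 0.036). The p of batch 1 alone measures only the spread within that batch, where 56.6% of all tested genes were called in this comparison.

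**Figure D4:**
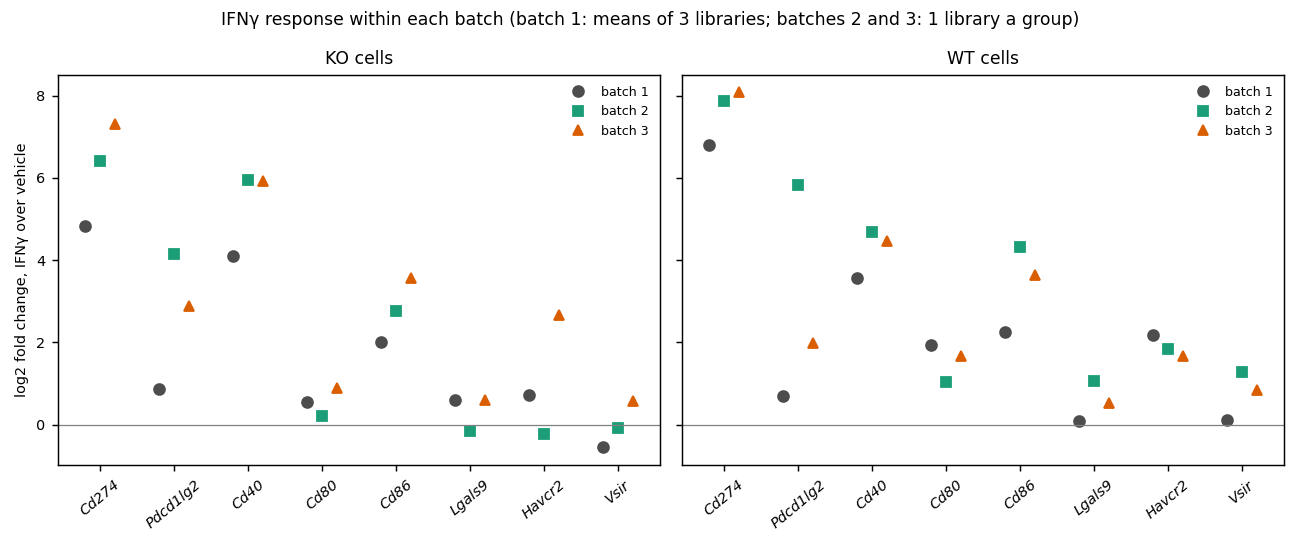
Log2 fold change of IFNγ over vehicle within each batch for the 8 genes, in KO cells (left) and WT cells (right), with batch 1 as means of 3 libraries and batches 2 and 3 as 1 library a group. Cd274 runs from 4.84 to 7.3 in KO and from 6.79 to 8.08 in WT cells, and Havcr2 in KO cells spreads from −0.24 to 2.66.

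In KO cells 3 of the 8 genes were higher with IFNγ without overlap between the groups and 0 were lower, where 27.6% of all tested genes did not overlap, 13.4% higher and 14.2% lower. In WT cells 5 were higher without overlap and 0 lower, where 36.2% of all genes did not overlap, 18% higher and 18.2% lower. Between KO and WT cells under IFNγ, 0 were higher and 3 lower without overlap, where 15.1% of all genes did not overlap, 6.53% higher and 8.57% lower. Under vehicle 1 was higher and 3 were lower, where 24.9% did not overlap, 11.8% higher and 13.2% lower. Two-sided exact permutation tests on these levels, which ignore batch, numbered 32 and were not adjusted, and the 15 without overlap had the smallest p that they allow, 0.0079. Of the 21 calls of the edgeR fit in these comparisons, 4 had an exact permutation p over 0.05. It was 0.071 for Cd80 with IFNγ in KO cells, 0.29 for Vsir with IFNγ in WT cells, and 0.17 for Cd274 and 0.13 for Cd86 in KO against WT cells under IFNγ. Another 4 differences that the fit did not call had an exact permutation p under 0.05, with Pdcd1lg2 at 0.016 with IFNγ in KO cells and, in KO against WT cells under vehicle, Cd86 at 0.0079, Lgals9 at 0.024 and Pdcd1lg2 at 0.048.

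Of 12 genes known to control PD-L1, from the IFNγ receptor to its feedback inhibitors, all were tested, and 10 rose and 1 fell with IFNγ in each line. Their median log2 response was 1.19 in KO and 1.5 in WT cells. Of all tested genes, 21.4% rose and 21.8% fell in KO cells, and 29% rose and 29.9% fell in WT cells. Irf1, a transcription factor that activates the PD-L1 gene, averaged 896 ± 432 CPM in KO IFNγ, 32.1 ± 6.11 CPM in KO vehicle, 1180 ± 596 CPM in WT IFNγ and 32.6 ± 6.54 CPM in WT vehicle libraries (SD, n = 5 each). Its WT response was 5.05 ± 0.34 (edgeR adjusted p = 6.4e-10), the largest of the list in that line, and Socs1, a feedback inhibitor of JAK kinases, had the largest KO response at 5.43 ± 0.42 (edgeR adjusted p = 8.6e-09). Ifngr1, the ligand-binding chain of the IFNγ receptor, fell by 0.56 ± 0.11 on the log2 scale in KO cells (edgeR adjusted p = 0.00051) and by 0.76 ± 0.11 in WT cells (edgeR adjusted p = 1.1e-05). Between KO and WT cells 0 of the list were higher and 6 lower under IFNγ, beside 20% and 19% of all tested genes. Under vehicle 2 were higher and 5 lower, beside 12.5% and 14.8% of all tested genes. Jak1 was the 1 gene of the list whose response differed, by −1.10 ± 0.29 (edgeR adjusted p = 0.027), where 6.5% of all tested genes differed. Jak2 was lower in KO cells by −1.44 ± 0.22 under IFNγ (edgeR adjusted p = 3.9e-05) and by −1.43 ± 0.22 under vehicle (edgeR adjusted p = 6.5e-05). Jak1 and Jak2 are named after their values were seen.

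Of 22 other ligands and counter-receptors of presenting cells, 16 passed the filter on low counts. With IFNγ 7 rose and 3 fell in KO cells, with a median of 0.49, beside 21.4% and 21.8% of all tested genes. In WT cells 9 rose and 1 fell, with a median of 0.53, beside 29% and 29.9% of all tested genes. Lgals3, which encodes galectin-3, averaged 4430 ± 2020 CPM in KO IFNγ, 1310 ± 223 CPM in KO vehicle, 6720 ± 2260 CPM in WT IFNγ and 939 ± 210 CPM in WT vehicle libraries (SD, n = 5 each). It had the largest rise of the list in WT cells, 6.97-fold (edgeR adjusted p = 3e-11). Tnfsf18, the ligand of GITR, had the largest in KO cells, 9.25-fold (edgeR adjusted p = 4.8e-06), at 6.8 ± 4.98 CPM with IFNγ against 0.672 ± 0.268 CPM with vehicle. Hmgb1, a nuclear protein that TIM-3 can bind, had the largest called fall in both lines, 2.12-fold in KO cells (edgeR adjusted p = 3.1e-05) and 2.69-fold in WT cells (edgeR adjusted p = 4.6e-07). Between KO and WT cells, 5 were higher and 7 lower under IFNγ, with a median of −0.40, beside 20% and 19% of all tested genes. Under vehicle 2 were higher and 3 lower, with a median of 0.01, beside 12.5% and 14.8% of all tested genes. The response of 2 of the list was smaller in KO cells, beside 2.86% of all tested genes. That of Lgals3, by −1.14 ± 0.20 (edgeR adjusted p = 0.002), was the larger of the 2 differences.

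The genes most like each member were found by the smallest root mean square difference of centred log2 CPM over the 20 libraries, as a description. Cd274 was most like Ptgs2, at 0.48, and Rgs1, at 0.87. Ptgs2, the inducible cyclooxygenase, averaged 1110 CPM in KO IFNγ, 17.9 CPM in KO vehicle, 2130 CPM in WT IFNγ and 16.9 CPM in WT vehicle libraries. Cd40 was most like Clec4n (0.56) and Cd36 (0.59), Cd80 like Plxdc1 and Pqlc2 (0.39 each), and Cd86 like Adam8 (0.25) and Itgb2 (0.28). Lgals9 was most like Hsd17b11 (0.21) and Csf3r (0.22), Havcr2 like Syk (0.35) and Alcam (0.36), and Vsir like Arfgef3 (0.34) and Bsg (0.35). Pdcd1lg2 was most like Csf2rb, at 0.62.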

How the data were processed

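Raw counts per gene were deposited for 20 libraries in 1 table. Tools listed in the submitters' processing notes are STAR, Trim Galore, FastQC and DESeq2, with no version or role, and the build is GRCm39. The sources used here give no counting tool, strand setting or annotation. All count columns matched a library by the labels. GENCODE vM21 (GRCm38) gave symbols for 51948 of 56941 gene IDs (91.2%) and exon lengths.

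From these deposited counts, edgeR 4.0.16 (R 4.3.3, limma 3.58.1) was run with TMM scaling and filterByExpr, which left 13755 genes. The quasi-likelihood fit took group and batch as terms over all 20 libraries, with 14 residual degrees of freedom, and p-values were Benjamini-Hochberg adjusted over all tested genes. Scripts were tested on simulated data. Precision is set by 15866749 to 29157740 counts per library and by the spread of 5 libraries. Ratios within a library (8 tests) and the levels of the 8 genes (32 tests) were also compared with two-sided exact permutation tests over libraries, which ignore batch. The chi-squared statistic per degree of freedom between replicates was at least 3.69, so no library was a copy of another. It was 3.69 to 14.4 within batch 1 and 15.2 to 397 between batches, so batch 1 libraries were more alike than libraries of different batches. The exact permutation tests nevertheless treat the 5 libraries of a group alike.

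Same-numbered libraries of batch 1 deviated from their group means with correlations of −0.1 to 0.05, which does not pair them further than by batch. The 30 alternatives per test were RLE scaling in edgeR, plain library totals, no filter, DESeq2 1.42.0, limma-voom, no batch term, the replicate block, batch 1 only, leaving out batch 2 or batch 3, and leaving out each library.

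The 8 genes and the lists (PD-L1 control, CD40 signalling, other ligands, T cell receptors, markers of cell types and RNA quality) were chosen with earlier results of these data known. All 8 are named, and from each list other than the marker lists the called genes with the largest rise and fall with IFNγ. Genes named outside this rule are said to be so, except marker genes. For each of the 8 the 2 most similar genes are named, except 1 gene that is not reported here.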

Additional observations from a re-analysis of the deposited data

Results flagged for a closer look

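In 4 of 32 sets of 5 libraries (8 genes in 4 groups), the highest library lay far from the other 4 by Dixon's test, which flags about 1 in 20 sets by chance where libraries are independent. Here 3 of each 5 share batch 1, and the library that stood apart was each time of batch 2 or 3. WT IFNγ replicate 4 (batch 2) had 10.4 CPM of Pdcd1lg2, with 0.341 to 2.91 CPM in the other 4. KO IFNγ replicate 5 (batch 3) had 547 CPM of Cd86, with 212 to 302 CPM in the others, and 241 CPM of Havcr2, with 40.5 to 59.5 CPM in the others. KO vehicle replicate 4 had 88.6 CPM of Vsir, with 49.5 to 60.4 CPM in the others.

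The IFNγ response differed between the lines for 2 of the 8 genes by the interaction term of the edgeR fit, where 6.5% of all genes differed. Cd274 responded less in KO cells by −1.63 on the log2 scale (adjusted p = 0.02), the KO response being the smaller in all 3 batches. That call was lost in 2 of 30 alternatives, with no batch term (adjusted p = 0.42) and without WT IFNγ replicate 5 (adjusted p = 0.051). Cd80 responded less by −1.11 (adjusted p = 0.034), also in all 3 batches, but the call was lost in 14 of 30 alternatives, among them the replicate block, at −1.10 (adjusted p = 0.068).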

How the results depend on the processing

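Of the 23 calls among the 40 tests (8 genes in 5 comparisons), 15 held with the same direction in all 30 alternatives. Of the 17 tests without a call, 13 were called in the same direction in at least 1 alternative. Lgals9 in KO against WT cells under IFNγ, not among those 13, was called in the opposite direction in batch 1 alone. The count of the 8 genes that rose with IFNγ, 5 in KO and 7 in WT cells, ranged over 4 to 7 in KO and 5 to 8 in WT cells across the alternatives. With batch 1 only, where 51.3% to 74% of all genes were called in each comparison, the counts became 1 lower with IFNγ in KO cells (0 over all batches), 2 higher in KO than WT under vehicle (1), 1 higher in KO than WT under IFNγ (0), and 2 larger and 5 smaller responses in KO cells (0 and 2). The replicate block left 0 higher under vehicle and 1 smaller response, as it ended the calls of Vsir in WT cells at 0.56, Cd80 in KO cells at 0.57, Havcr2 under vehicle at 0.80 and the Cd80 difference of responses at −1.10, and no other call among the 8 genes. limma-voom and the fit without a batch term also gave 0 higher under vehicle. The count of smaller responses was 1 with plain totals, 0 with no batch term, 4 without batch 3, and 4 with no filter, which also gave 1 larger response. Leaving out each library gave 0 to 1 lower with IFNγ in KO cells, 0 to 1 higher under vehicle and 0 to 3 smaller responses.

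Directions turned for values that were not called over all libraries. The KO against WT difference of Lgals9 under IFNγ was 0.45 in batch 1 and 0.07 without batch 2, and that of Havcr2 was 0.02 with no batch term and −0.70 to 0.03 when leaving out each library. The Pdcd1lg2 difference of responses was 0.12 in limma-voom, 0.16 in batch 1, 0.35 without batch 2 and −0.82 to 0.65 when leaving out each library, and that of Lgals9 was −0.05 to 0.29. For the log2 ratio of Cd274 over Pdcd1lg2, the KO against WT difference under IFNγ ranged over −0.62 to 0.26 and that under vehicle over 0.96 to 1.70 when leaving out each library, and adding 2 to each count gave 1.21 and a call under vehicle, as did leaving out WT IFNγ or WT vehicle replicate 4. For Cd80 over Cd86 the same ranges were −1.4 to −0.78 for IFNγ in WT cells and −1.62 to −0.97 for KO against WT under IFNγ, called without WT IFNγ replicate 4. The cause was not tested.

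Over all genes, plain totals gave a median log2 change of −0.16 in KO and −0.21 in WT cells with IFNγ and of 0.13 between KO and WT under IFNγ, against −0.02, 0.01 and 0.01 with TMM. The share of calls that were higher was then 38.5% in KO (49.5% with TMM), 36.7% in WT (49.2%) and 62.3% in KO against WT under IFNγ (51.4%). Genes with different responses numbered 894, against 537 with plain totals, 530 with the replicate block, 138 without a batch term, 1480 in DESeq2, 7096 in batch 1, 1906 without batch 2, 1631 without batch 3 and 542 to 1448 without each library. Without a batch term, 3897 genes (5937) responded to IFNγ in KO cells and 2318 (3753) differed under vehicle, and in batch 1 KO against WT gave 8072 under vehicle and 9580 (5363) under IFNγ. Pdcd1lg2, at 1 to 133 counts a library, is limited by depth.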

Other observations

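Some costimulatory and inhibitory receptors known from T cells were read in BV-2 cells. Of 14 such genes, 7 passed the filter on low counts. With IFNγ 1 rose and 3 fell in KO cells, beside 21.4% and 21.8% of all tested genes. The gene that rose was Lag3, by 1.93 ± 0.5 on the log2 scale (edgeR adjusted p = 0.0044). Its means were low, at 0.174 CPM with vehicle and 0.674 CPM with IFNγ. In WT cells 0 rose and 3 fell, beside 29% and 29.9% of all tested genes. Btla, an inhibitory receptor, had the largest fall in KO cells, at 0.0964 ± 0.0897 CPM with IFNγ and 1.45 ± 0.849 CPM with vehicle (SD, n = 5 each), and Icos the largest fall in WT cells, at 0.522 ± 0.299 CPM with IFNγ and 3.3 ± 0.615 CPM with vehicle (SD, n = 5 each). Between KO and WT cells 1 was higher and 3 were lower under each treatment, and 0 differed in response to IFNγ. Of all tested genes, 20% were higher and 19% lower under IFNγ, 12.5% higher and 14.8% lower under vehicle, and 6.5% differed in response.

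The following genes, and for Lag3 its KO against WT comparison, were singled out after their values were seen. Lag3, an inhibitory receptor, averaged 0.674 ± 0.326 CPM in KO IFNγ, 0.174 ± 0.0414 CPM in KO vehicle, 15.3 ± 15.8 CPM in WT IFNγ and 8.41 ± 1.72 CPM in WT vehicle libraries (SD, n = 5 each). It was lower in KO than in WT cells by −4.20 ± 0.41 on the log2 scale under IFNγ (edgeR adjusted p = 1.7e-07) and by −5.64 ± 0.47 under vehicle (edgeR adjusted p = 2.1e-08). Pdcd1, the PD-1 gene, averaged 1.01 ± 0.563 CPM in KO IFNγ, 3.66 ± 2.29 CPM in KO vehicle, 6.68 ± 1.99 CPM in WT IFNγ and 10.7 ± 2.12 CPM in WT vehicle libraries (SD, n = 5 each). It was lower in KO cells by −2.86 ± 0.42 under IFNγ (edgeR adjusted p = 2.3e-05) and by −1.67 ± 0.38 under vehicle (edgeR adjusted p = 0.0024). Tnfrsf9, which encodes 4-1BB, was higher in KO cells by 2.83 ± 0.38 under IFNγ (edgeR adjusted p = 8.6e-06) and by 2.39 ± 0.36 under vehicle (edgeR adjusted p = 4.9e-05). Cd28, the receptor of CD80 and CD86, averaged 112 to 131 CPM in the 4 groups and was called in none of the 5 comparisons. The summed level of 7 T cell marker genes was 3.75 to 7.71 CPM in KO IFNγ, 8.75 to 12.4 CPM in KO vehicle, 10.6 to 16.2 CPM in WT IFNγ and 9.96 to 34.4 CPM in WT vehicle libraries. Of these 7, only Cd5 and Lck passed the filter on low counts, and Cd3g was at 0 CPM in all 4 groups. The part of T cells in these values was not tested.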
